A study of Mus musculus with 8 samples.

Results

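A set of 10 genes that mark fibroblasts of the meninges was followed in bulk RNA of the mouse parietal bone, a flat plate of the skull roof that carries the dura on its inner face. The members are the count-table rows named Foxc2, Foxd1, Zic1, Aldh1a2, Crabp2, Slc47a1, Slc22a6, Cldn11, Ptgds and Crym, 10 of 27133 genes. They were taken by symbol. All 10 rows were found and 9 passed the filter on low counts; Slc22a6 did not. Anti-CSF1R libraries 7, 8, 9 and 10 came from C57BL6J pups given an antibody that blocks CSF1R, and isotype libraries 2, 3, 4 and 5 from C57BL6J pups given an isotype antibody. Dosing was transcranial in both groups, on postnatal days 2, 4 and 6, and the pups were perfused for collection at postnatal day 9. CSF1R is the receptor that macrophages and osteoclasts need for survival, and the comparison asks how bone RNA differs after a treatment meant to remove myeloid cells. The labels name no altered allele in either group. Whether every library stands for its own pup is not stated, so the p-values cover the spread among the libraries, which may be technical. Whether the dura was peeled off is not stated either.

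The meninges are layered sheets of fibroblasts around the brain. The dura adheres to the skull, the arachnoid beneath it holds a barrier layer sealed by tight junctions, and the pia lies on the brain. Fibroblasts of the arachnoid make retinoic acid and carry uptake and efflux transporters, and forkhead and ZIC transcription factors act in the development of the meninges and of the neighbouring skull. The forkhead and ZIC genes are also active in mesenchyme of the skull vault, so their RNA in a bone sample does not by itself count dura.

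Total counts ran from 57496279 to 69118931 per library. Between 82.8% and 84.7% of counts from 1 to 10 were even, as arises when both mates of a read pair are counted, so there were fewer fragments than counts. The detection floor was set at 3 counts, or 0.0396 to 0.0573 CPM (counts scaled to a common library size with TMM factors), which covers counting error only. Isotype libraries 3 and 4 stood apart. Their Spearman correlation with the other 6 across genes was 0.916 to 0.943, against 0.986 to 0.997 among those 6, and their deviation from the median library followed transcript GC content (Spearman correlation across genes 0.650 and 0.640, against -0.371 to -0.0290 in the others). The fit was therefore repeated with isotype 2 and 5 only and with an offset for GC content and transcript length. Of the 8 macrophage markers 6 fell with anti-CSF1R (edgeR, adjusted p under 0.05), and their summed level was 111 to 207 CPM with anti-CSF1R and 516 to 1120 CPM with isotype.

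None of the 9 tested members passed the threshold between the antibody groups (edgeR quasi-likelihood test on all 8 libraries, Benjamini-Hochberg adjusted p under 0.05). Over all 17028 tested genes the same test called 0.846% (0.822% lower and 0.0235% higher), so few calls would be found in any list of 9. One member of the 9, Ptgds, had an unadjusted edgeR p under 0.05, as did 17.9% of all tested genes, the background for each such count below. DESeq2 called that same member, against 4.56% of all genes, the background for the DESeq2 counts below. The median log2 fold change (anti-CSF1R minus isotype) was 0.12 over the 9 members and 0.03 over all tested genes. Of the 9, 6 had a value above 0 and 3 below. In bulk RNA, fewer cells of a type and less RNA per cell cannot be told apart.

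**Figure D1:**
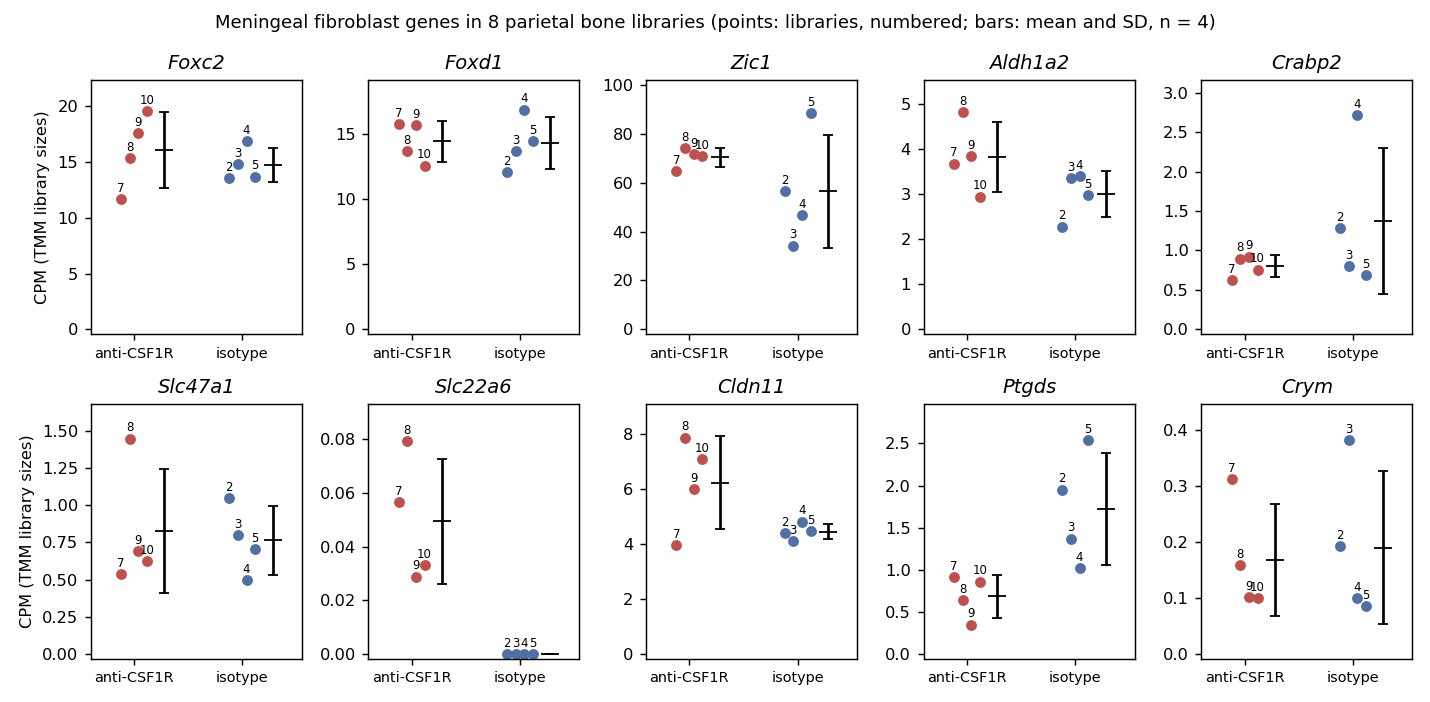
CPM of each of the 10 meningeal genes in every library, anti-CSF1R at the left and isotype at the right of each panel; numbers are library numbers, and bars give mean and SD (n = 4). Ptgds separates the groups, at 0.346 to 0.907 CPM with anti-CSF1R and 1.02 to 2.54 CPM with isotype; Slc22a6 was at 2 to 6 counts with anti-CSF1R and at 0 with isotype.

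The levels, compared per kilobase of the longest annotated transcript, fell into a high and a low end. Zic1 was the most abundant member, at 11.3 ± 3.04 CPM per kb (SD over 8 libraries), above 69.9% of 16005 tested genes with a transcript length. Foxc2 followed at 5.65 ± 0.933 CPM per kb and was below Zic1 in 8 of 8 libraries, though the ranges of the 2 genes over libraries overlapped. Cldn11 and Foxd1 did not differ beyond their spread, at 2.86 ± 0.788 and 2.84 ± 0.33 CPM per kb. The range of Foxd1 lay above that of Aldh1a2, at 1.51 ± 0.33 CPM per kb. Crabp2 (1.17 ± 0.736 CPM per kb) and Ptgds (0.908 ± 0.546 CPM per kb) overlapped with each other and with Aldh1a2. Slc47a1, which overlapped with Ptgds, stood at 0.266 ± 0.106 CPM per kb, above 9.85% of tested genes, Crym at 0.0665 ± 0.0416 CPM per kb and Slc22a6 at 0.00621 CPM per kb. The transcription factors, shared with skull mesenchyme, thus made up 3 of the 4 highest members, and the transporters stood near the bottom.

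**Figure D2:**
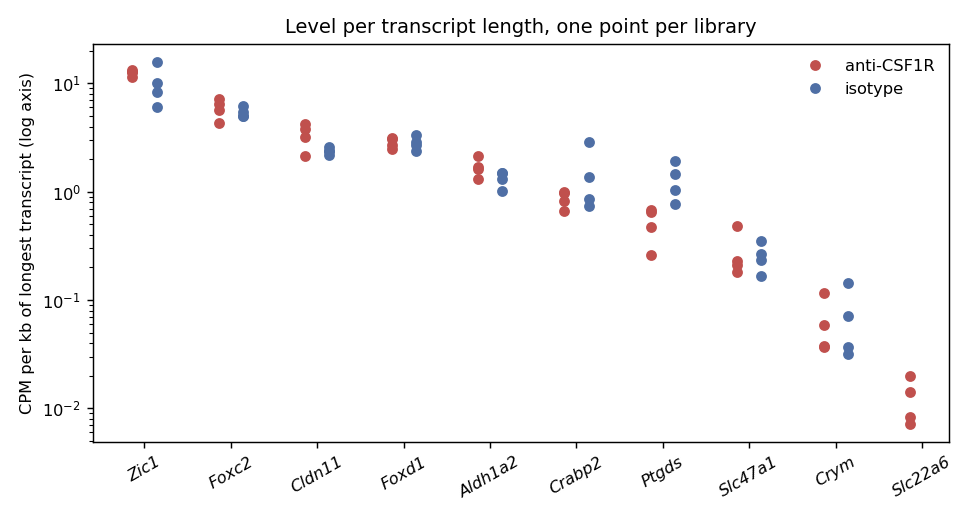
CPM per kilobase of the longest GENCODE M21 transcript for each member (log axis), ordered by the mean over 8 libraries, one point per library with anti-CSF1R at the left and isotype at the right of each gene. Levels run from 11.3 CPM per kb in Zic1 to 0.00621 CPM per kb in Slc22a6, whose isotype libraries, at 0, cannot be drawn on a log axis.

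Among the transcription factors, Zic1, a zinc finger gene of dorsal neural tissue, meninges and skull mesenchyme, was measured at the highest count. It stood at 64.8, 74.0, 71.6 and 70.8 CPM in anti-CSF1R 7, 8, 9 and 10, against 56.5, 34.2, 46.8 and 88.3 CPM in isotype 2, 3, 4 and 5. The 4 anti-CSF1R libraries lay within the isotype range, and isotype 3 and 4 were the lowest of the 8. The difference on the log2 scale was 0.32 ± 0.26 (SE; edgeR adjusted p = 0.396). The sign turned, to -0.05, when isotype 3 and 4 were left out (edgeR adjusted p = 0.941) and under the offset (0.826). Adjusted p ran from 0.0967 to 0.941 over 17 alternatives. The longest Zic1 transcript has 45.7% GC, the lowest of the 10 members. The within-group spread of log2 CPM was 0.0816 (SD, n = 4) with anti-CSF1R and 0.572 with isotype, against medians of 0.111 and 0.463 over all tested genes.

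Zic4, the paralog that lies head to head with Zic1, stood at 22.9, 25.9, 24.2 and 25.4 CPM in anti-CSF1R 7, 8, 9 and 10, against 23.3, 16.1, 19.2 and 34.3 CPM in isotype 2, 3, 4 and 5. Isotype 3 was lowest and isotype 5 highest for both genes. The centred log2 CPM of the pair differed by 0.15 (root mean square over 8 libraries), less than for Zic1 against Zic2 (0.304) or Zic5 (0.367). The ratio of Zic1 to Zic4 CPM was 2.79 to 2.96 with anti-CSF1R and 2.13 to 2.57 with isotype. This ratio was looked at after the values were seen and was not tested. GENCODE M21 places 60 exonic bases of Zic1 under Zic4 on the opposite strand, and no strand setting of the counting is given in the sources used here, so a few reads could be shared. The other 9 members share no exonic base with another annotated gene.

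The promoters of this pair and of Ptgds are shown because Zic1 is the most abundant member, Zic4 its divergent neighbour and Ptgds the tested member whose groups did not overlap. They come from RefSeq on GRCm38.p6 (250 bases before and 50 after the start, 5′ to 3′ on the gene's strand), and the table held 6 of the 10 members. The build of the counts is not settled between GRCm38 and GRCm39, so these positions locate the sequences alone. They are chr9:91365719-91366018 on the minus strand for Zic1, chr9:91368722-91369021 on the plus strand for Zic4 and chr2:25469700-25469999 on the minus strand for Ptgds. Capitals mark CCAAT on either strand.
Zic1: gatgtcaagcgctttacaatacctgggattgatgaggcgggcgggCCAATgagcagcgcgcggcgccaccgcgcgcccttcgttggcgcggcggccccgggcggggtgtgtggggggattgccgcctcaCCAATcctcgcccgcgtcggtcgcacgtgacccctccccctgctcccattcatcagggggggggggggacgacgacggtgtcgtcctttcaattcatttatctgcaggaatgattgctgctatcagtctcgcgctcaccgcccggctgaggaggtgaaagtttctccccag
Zic4: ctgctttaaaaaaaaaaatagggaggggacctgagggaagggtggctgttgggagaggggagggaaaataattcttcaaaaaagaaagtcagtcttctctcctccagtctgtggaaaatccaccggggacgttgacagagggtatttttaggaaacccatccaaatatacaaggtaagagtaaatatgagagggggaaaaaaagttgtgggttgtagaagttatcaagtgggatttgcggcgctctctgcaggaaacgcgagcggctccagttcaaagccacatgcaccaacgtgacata
Ptgds: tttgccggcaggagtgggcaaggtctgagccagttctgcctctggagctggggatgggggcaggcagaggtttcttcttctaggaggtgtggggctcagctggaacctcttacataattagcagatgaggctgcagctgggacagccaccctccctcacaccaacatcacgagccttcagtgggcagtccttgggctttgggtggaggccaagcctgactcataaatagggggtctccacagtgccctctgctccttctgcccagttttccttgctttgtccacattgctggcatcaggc

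The Zic1 window was rich in GC (65.3%) with 31 CpG dinucleotides, and it held 2 CCAAT matches. The Zic4 window had 46.0% GC and 8 CpG, and the Ptgds window 57.7% GC and 2 CpG, against medians of 52.7% and 7 over 32851 promoters. Searched on both strands, CCAAT occurs in 37.4% of those promoters, TATAAA in 13.6%, AGGTCA (a half-site of nuclear receptors such as those for retinoic acid and thyroid hormone) in 16.3% and GCCNNNGGC in 16.6%. The Zic1 window held 1 match to GCCNNNGGC. Zic4 and Ptgds held a match to none of the 4, which says only that these letters are not in these windows. None of these motifs overlapped another in the Zic1 window.

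Foxc2, a forkhead factor of mesenchyme and of lymphatic vessels, stood at 11.7, 15.4, 17.6 and 19.6 CPM in anti-CSF1R 7, 8, 9 and 10, against 13.6, 14.8, 16.9 and 13.7 CPM in isotype 2, 3, 4 and 5. The anti-CSF1R libraries spanned the isotype range on both sides, with library 7 the lowest of the 8 and library 10 the highest. Their log2 CPM had an SD of 0.322, against 0.145 in the isotype libraries. Foxc2 differed by 0.13 ± 0.185 on the log2 scale (edgeR adjusted p = 0.625). The offset moved it to 0.42 ± 0.191 (edgeR adjusted p = 0.213, the lowest of 17 alternatives; the highest was 0.959). At 62.0%, its transcript is the richest in GC among the members.

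Foxd1, a forkhead factor of mesenchymal precursors, varied little. It stood at 15.8, 13.7, 15.7 and 12.6 CPM in anti-CSF1R 7, 8, 9 and 10, against 12.1, 13.7, 16.9 and 14.5 CPM in isotype 2, 3, 4 and 5. The groups overlapped almost fully, and the highest library of the 8 was 1.40 times the lowest. Foxd1 differed by 0.01 ± 0.16 on the log2 scale (edgeR adjusted p = 0.953), which lay between -0.09 and 0.18 over 17 alternatives.

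In the relatives of these factors (15 FOX, ZIC and GLI genes, 13 tested) 0 passed in edgeR and 0 in DESeq2, and 1 had an unadjusted edgeR p under 0.05. Their median log2 fold change was 0.28, beside 0.03 over all tested genes. Foxc1, a forkhead factor required for the meninges and skull vault, averaged 57.9 ± 2.02 CPM with anti-CSF1R and 40.8 ± 9.90 CPM with isotype (SD, n = 4 each; log2 fold change 0.50 ± 0.18, edgeR adjusted p = 0.277). All 4 anti-CSF1R values exceeded the highest isotype value, as for 6.61% of all tested genes, and the log2 value was 0.25 with isotype 2 and 5 only. Gli1, the hedgehog target that marks suture mesenchyme, averaged 46.6 ± 2.93 CPM with anti-CSF1R and 49.4 ± 12.1 CPM with isotype.

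Of the retinoid members, Aldh1a2, which oxidises retinaldehyde to retinoic acid, stood at 3.68, 4.82, 3.84 and 2.95 CPM in anti-CSF1R 7, 8, 9 and 10. It stood at 2.28, 3.36, 3.4 and 2.98 CPM in isotype 2, 3, 4 and 5. Anti-CSF1R 7, 8 and 9 lay above every isotype library and anti-CSF1R 10 within them. Aldh1a2 differed by 0.35 ± 0.21 on the log2 scale (edgeR adjusted p = 0.311). It was 0.54 ± 0.22 when isotype 3 and 4 were left out (edgeR adjusted p = 0.277) and 0.49 ± 0.17 under the offset (0.162); over the 17 alternatives adjusted p ran between 0.162 and 0.543. Without anti-CSF1R 8 it was 0.22.

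Crabp2, a cytosolic protein that carries retinoic acid to its nuclear receptor, stood at 0.623, 0.898, 0.923 and 0.759 CPM in anti-CSF1R 7, 8, 9 and 10, against 1.28, 0.802, 2.71 and 0.693 CPM in isotype 2, 3, 4 and 5. Isotype 4 was the highest of the 8 libraries and raised the isotype mean of 1.37 ± 0.927 CPM; the anti-CSF1R mean was 0.801 ± 0.139 CPM. Crabp2 differed by -0.77 ± 0.43 on the log2 scale (edgeR adjusted p = 0.298). Without isotype 4 it was -0.22 (edgeR adjusted p = 0.666; between 0.124 and 0.747 in its 16 alternatives).

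Of 17 other retinoid pathway genes listed, 16 were tested and 0 passed in edgeR on all libraries (7 with an unadjusted p under 0.05), and their median log2 fold change was -0.32, beside 0.03 over all tested genes. With isotype 2 and 5 only the medians were -0.02 and 0.0024. DESeq2 called 2 of them, Aldh1a3 higher and Rbp4 lower (0.869% and 3.69% of all genes). The highest in CPM were the receptors Rarg, at 128 ± 5.10 CPM with anti-CSF1R and 170 ± 39.4 CPM with isotype, and Rxra, at 96.8 ± 3.88 and 113 ± 29.2 CPM in the same order (edgeR adjusted p = 0.278 and 0.406). Rarg and Rxra had a log2 fold change of -0.41 and -0.22 on all libraries, and of -0.10 and 0.11 with isotype 2 and 5 only.

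A sister enzyme of Aldh1a2, Aldh1a3, and the retinoic acid hydroxylase Cyp26b1 were singled out after their values were seen. Aldh1a3 stood at 11.6, 16.8, 14.1 and 19.0 CPM in anti-CSF1R 7, 8, 9 and 10, against 9.35, 5.80, 8.88 and 7.11 CPM in isotype 2, 3, 4 and 5, with no overlap. Its log2 fold change was 0.98 ± 0.22 on all libraries (edgeR adjusted p = 0.0863). Under the offset it was 1.02 and passed (edgeR adjusted p = 0.0290; between 0.00255 and 0.284 in its 17 alternatives). Per kilobase it averaged 4.46 ± 0.939 CPM with anti-CSF1R and 2.26 ± 0.476 CPM with isotype, more than the 1.69 ± 0.339 and 1.33 ± 0.229 CPM per kb of Aldh1a2. Cyp26b1 averaged 88.6 ± 15.3 CPM with anti-CSF1R and 59.4 ± 6.4 CPM with isotype, also without overlap (log2 fold change 0.58 ± 0.16, edgeR adjusted p = 0.182). Under the offset it was 0.75 (edgeR adjusted p = 0.0355; between 0.0355 and 0.451 in its 17 alternatives). Aldh1a3, Dhrs3 and Cyp26b1 were the 3 retinoid genes called higher with the offset, where 0.493% of all tested genes were called higher and 2.16% lower.

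The transporters of the arachnoid barrier had low counts. Slc47a1, a proton-coupled exporter of organic cations, had 38, 110, 48 and 38 counts in anti-CSF1R 7, 8, 9 and 10 and 66, 42, 30 and 50 counts in isotype 2, 3, 4 and 5. In CPM these are 0.538, 1.45, 0.692 and 0.627 with anti-CSF1R and 1.05, 0.802, 0.495 and 0.707 with isotype. Anti-CSF1R 8 was well above every other library of its group, and the remaining values of the groups overlapped. The log2 fold change of 0.12 ± 0.38 (edgeR, unadjusted p = 0.759) turned to -0.30 without anti-CSF1R 8, -0.05 without isotype 4 and -0.08 with isotype 2 and 5 only.

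Slc22a6, an organic anion exchanger, had 4, 6, 2 and 2 counts in anti-CSF1R 7, 8, 9 and 10 and 0 counts in each isotype library. A count of 0 allows up to 3 counts, 0.0424 to 0.0573 CPM in the isotype libraries. The anti-CSF1R values were 0.0567, 0.0792, 0.0288 and 0.0330 CPM, so only libraries 7 and 8 exceeded the floor. Each of these even counts may stand for fewer read pairs. A floor set in read pairs would lie at a higher CPM, which libraries 7 and 8 may not exceed. Without a filter on low counts the edgeR adjusted p was 0.225. A difference was not detectable at this depth, and no fold is given. Of 13 relatives of the 2 transporters 8 were tested and 0 passed, in edgeR or in DESeq2 (1 with an unadjusted edgeR p under 0.05; median log2 fold change 0.10). The most abundant relatives, Slc22a17 and the carnitine transporter Slc22a5, averaged 96.6 ± 5.17 and 27.5 ± 2.72 CPM with anti-CSF1R and 99.7 ± 15.1 and 23.3 ± 3.92 CPM with isotype.

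Cldn11, the claudin of the arachnoid barrier and of myelin, stood at 3.97, 7.88, 6.00 and 7.08 CPM in anti-CSF1R 7, 8, 9 and 10, against 4.41, 4.12, 4.82 and 4.47 CPM in isotype 2, 3, 4 and 5. Anti-CSF1R 8, 9 and 10 lay above every isotype library and anti-CSF1R 7 below them all. The means were 6.23 ± 1.70 CPM with anti-CSF1R and 4.45 ± 0.287 CPM with isotype, and the spread of log2 CPM was 0.433 and 0.0919. Cldn11 differed by 0.48 ± 0.22 on the log2 scale on all libraries (edgeR adjusted p = 0.278). It was 0.49 ± 0.25 when isotype 3 and 4 were left out (edgeR adjusted p = 0.417) and 0.67 ± 0.22 under the offset (0.148); over the 17 alternatives adjusted p ran between 0.148 and 0.518. Isotype 3 and 4 averaged 4.47 CPM and isotype 2 and 5 averaged 4.44 CPM.

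Of 17 other claudin and tight junction genes 12 were tested, 0 passed in edgeR (1 with an unadjusted p under 0.05) and 1, Tjp3, in DESeq2; the median log2 fold change was 0.01. The scaffold gene Tjp1 led the list, at 149 ± 10.6 CPM with anti-CSF1R and 91.0 ± 57.2 CPM with isotype. Tjp1 had a log2 fold change of 0.71 on all libraries and 0.10 without isotype 3 and 4 (edgeR adjusted p = 0.308 and 0.687). Among further barrier genes, Dpp4 stood at 0.897 to 4.20 CPM, and Cdh1, Slc22a8 and Slc6a13 at 0.330, 0.115 and 0.267 CPM or less in every library.

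Ptgds, the lipocalin-type prostaglandin D2 synthase secreted by arachnoid cells and also made by oligodendrocytes, was the member with the largest difference. It had 64, 48, 24 and 52 counts in anti-CSF1R 7, 8, 9 and 10 and 122, 72, 62 and 180 counts in isotype 2, 3, 4 and 5. In CPM these are 0.907, 0.634, 0.346 and 0.858 with anti-CSF1R and 1.95, 1.37, 1.02 and 2.54 with isotype. Each anti-CSF1R library lay below every isotype library, which was so for 8.34% of all tested genes (15.0% counting either direction).

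The Ptgds means were 0.686 ± 0.256 CPM with anti-CSF1R and 1.72 ± 0.667 CPM with isotype (SD). This was a log2 fold change of -1.33 ± 0.38 (SE; edgeR adjusted p = 0.183, unadjusted 0.00631). With isotype 2 and 5 only it was -1.72 ± 0.34 and passed (edgeR adjusted p = 0.0254), in a fit that called 2.38% of all genes lower and 0.679% higher. DESeq2 on all libraries also called it (-1.35, adjusted p = 0.0138), with 3.69% of genes called lower. The other 14 alternatives did not call it, among them the offset (-1.04 ± 0.465, edgeR adjusted p = 0.209) and each fit without 1 library (range over 16 alternatives 0.0138 to 0.445). Isotype 3 and 4 averaged 1.2 CPM and isotype 2 and 5 averaged 2.25 CPM, and the transcript has 56.4% GC.

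Hpgds, the haematopoietic prostaglandin D2 synthase of mast cells and some macrophages, differed in the same direction; it was singled out after its values were seen. It stood at 0.822, 1.56, 2.19 and 1.02 CPM in anti-CSF1R 7, 8, 9 and 10, against 7.21, 2.98, 2.58 and 8.17 CPM in isotype 2, 3, 4 and 5. For both synthases isotype 5 was highest, followed by isotype 2, 3 and 4. Within the anti-CSF1R libraries their orders were opposite. From high to low, Ptgds ran through libraries 7, 10, 8 and 9, and Hpgds through 9, 8, 10 and 7. Hpgds differed by -1.90 ± 0.46 on the log2 scale on all libraries (edgeR adjusted p = 0.116). It was -2.46 when isotype 3 and 4 were left out (edgeR adjusted p = 0.00792) and -2.28 under the offset (0.00345); over the 17 alternatives adjusted p ran between 0.000837 and 0.342. Of 18 other prostaglandin genes tested, 0 passed in edgeR on all libraries (4 with an unadjusted p under 0.05) and 1, Hpgds, in DESeq2; their median log2 fold change was 0.16. The most abundant, the prostacyclin synthase Ptgis and the degrading enzyme Hpgd, averaged 297 ± 16.2 and 156 ± 10.2 CPM with anti-CSF1R and 399 ± 185 and 112 ± 51.0 CPM with isotype (edgeR adjusted p = 0.334 and 0.316).

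**Figure D3:**
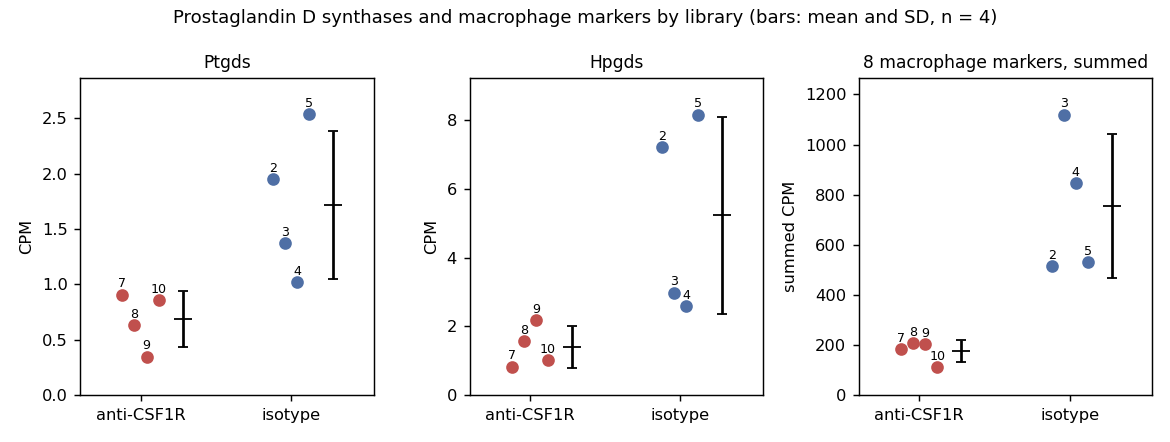
CPM of Ptgds and Hpgds and the summed CPM of 8 macrophage markers in each library (numbered), anti-CSF1R at the left and isotype at the right; bars give mean and SD (n = 4). All 3 measures separate the groups, lower with anti-CSF1R, with Ptgds at 0.346 to 0.907 CPM with anti-CSF1R and 1.02 to 2.54 CPM with isotype.

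Markers of other cells that make Ptgds or Cldn11 were set beside them. The 9 oligodendrocyte markers summed to 67.7 to 73.9 CPM with anti-CSF1R and 60.9 to 84.6 CPM with isotype, most of it from Ermn and Cnp, which are not confined to that cell type. Without Ermn and Cnp the sum was 9.51 to 17.3 CPM with anti-CSF1R and 13.4 to 14.8 CPM with isotype. Mog was at most 0.173 CPM with anti-CSF1R and 0.223 CPM with isotype, and Olig2 was at 0 in 7 of 8 libraries. Mbp was higher, at 4.19 to 10.3 CPM with anti-CSF1R and 7.63 to 11.3 CPM with isotype. Mag lay lower without overlap, at 0.312 to 0.495 CPM with anti-CSF1R and 0.707 to 1.29 CPM with isotype (log2 fold change -1.37, edgeR adjusted p = 0.0764). It was the only non-overlapping marker and the only DESeq2 call (adjusted p = 0.00143) among the 5 tested. Of those 5, 3 had a log2 fold change below 0 and 2 above. The 8 choroid plexus markers summed to 289 to 334 CPM with anti-CSF1R and 232 to 489 CPM with isotype, led by Aqp1 and Enpp2, which other tissues express, and Ttr, the defining gene, was at most 0.211 and 0.496 CPM. The 8 macrophage markers, led by Csf1r and Lyz2, had a lower sum in each anti-CSF1R library. Of the 8, 7 lay lower without overlap between groups, as did 8.34% of all tested genes. Within isotype the sum was 516 and 531 CPM in libraries 2 and 5, against 1120 and 846 CPM in libraries 3 and 4, where Ptgds was lower. Libraries 3 and 4 are those whose deviation followed GC content, and the contrast cannot be told apart from that. The part of these markers in the Ptgds difference was not tested.

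Crym, a cytosolic thyroid hormone binding protein, had 22, 12, 7 and 6 counts in anti-CSF1R 7, 8, 9 and 10 and 12, 20, 6 and 6 counts in isotype 2, 3, 4 and 5. The values overlapped fully, at 0.0990 to 0.312 CPM with anti-CSF1R and 0.0848 to 0.382 CPM with isotype (log2 fold change -0.13 ± 0.585, edgeR adjusted p = 0.875). At this depth only a large difference could be seen. Of 10 thyroid hormone genes 8 were tested and 0 passed, in edgeR or in DESeq2 (1 with an unadjusted edgeR p under 0.05; median log2 fold change -0.22). The receptor Thra averaged 143 ± 4.75 CPM with anti-CSF1R and 165 ± 41.5 CPM with isotype, and the target Klf9 42.9 ± 5.25 and 29.6 ± 18.1 CPM in the same order.

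**Figure D4:**
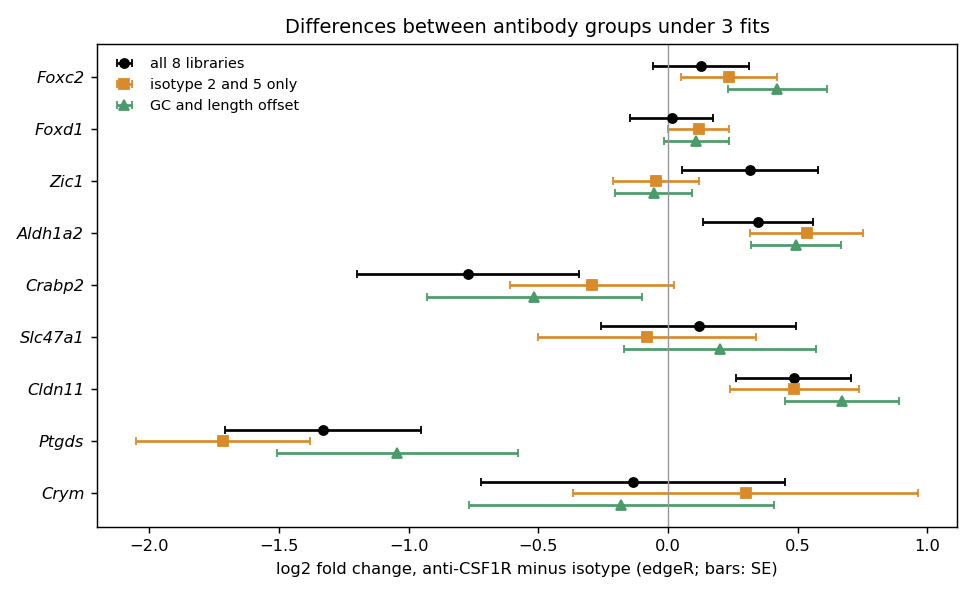
Log2 fold change (anti-CSF1R minus isotype) of the 9 tested members in edgeR, with SE bars, on all 8 libraries (circles), with isotype 2 and 5 only (squares) and with the GC and length offset (triangles). Ptgds lies at -1.33, -1.72 and -1.04; Zic1, Slc47a1 and Crym change sign among the 3 fits.

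The members did not vary together as 1 block. Of the 10 members 4 had their highest value of the 8 libraries in anti-CSF1R 8: Slc47a1, Cldn11, Aldh1a2 and, by 6 counts against 4, Slc22a6. Crabp2 and Foxd1 were highest in isotype 4, Ptgds and Zic1 in isotype 5, Foxc2 in anti-CSF1R 10 and Crym in isotype 3. Among other genes of the arachnoid barrier, Dpp4 was also highest in anti-CSF1R 8. In CPM, Slc6a13 and Slc22a8 were highest in isotype 3, Slc13a4 and Slc22a2 in isotype 4, and Cdh1 equally in anti-CSF1R 10 and isotype 4. In counts, anti-CSF1R 8 had the most for Cdh1 (24, against 20 in anti-CSF1R 10 and isotype 4) and for Slc22a2 (12, against 10 in isotype 4). Slc6a13 and Slc22a8 reached at most 14 and 6 counts. At such counts the highest library is not settled. Of the 25 other meningeal genes 3 were highest in anti-CSF1R 8, against 7 each in isotype 3 and isotype 5. The share of all tested genes highest in each library was not determined. These tallies therefore have no background and only describe the lists.

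Markers of brain cells were tallied in the same way. Anti-CSF1R 8 was highest for 3 of 5 astrocyte markers, among them Gfap (2.54 CPM, against 0.660 to 1.59 CPM in the others), for 3 of 9 oligodendrocyte markers and for 1 of 8 neuron markers. The other markers of these lists were highest in other libraries, 3 of the neuron markers in isotype 3. The 5 astrocyte markers, led by Slc1a3 and Gfap, summed to 15.8 to 18.3 CPM with anti-CSF1R and 9.39 to 17.2 CPM with isotype. The 8 neuron markers, led by Tubb3 and Map2, summed to 10.1 to 12.3 and 11.3 to 17.8 CPM in the same order. Aldh1l1 lay lower without overlap, at 0.368 to 0.924 CPM with anti-CSF1R and 1.31 to 2.02 CPM with isotype. Stmn2 did too, at 1.22 to 1.5 and 2.21 to 3.89 CPM. DESeq2 called both (adjusted p = 0.00288 and 0.00103), and edgeR did not (0.113 and 0.0764). Of the tested markers, 1 of 4 astrocyte and 5 of 6 neuron markers had a log2 fold change below 0. The part of brain RNA in the values of anti-CSF1R 8 was not tested. Leaving out anti-CSF1R 8 gave log2 fold changes of 0.35 in Cldn11, 0.22 in Aldh1a2 and -0.30 in Slc47a1.

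**Figure D5:**
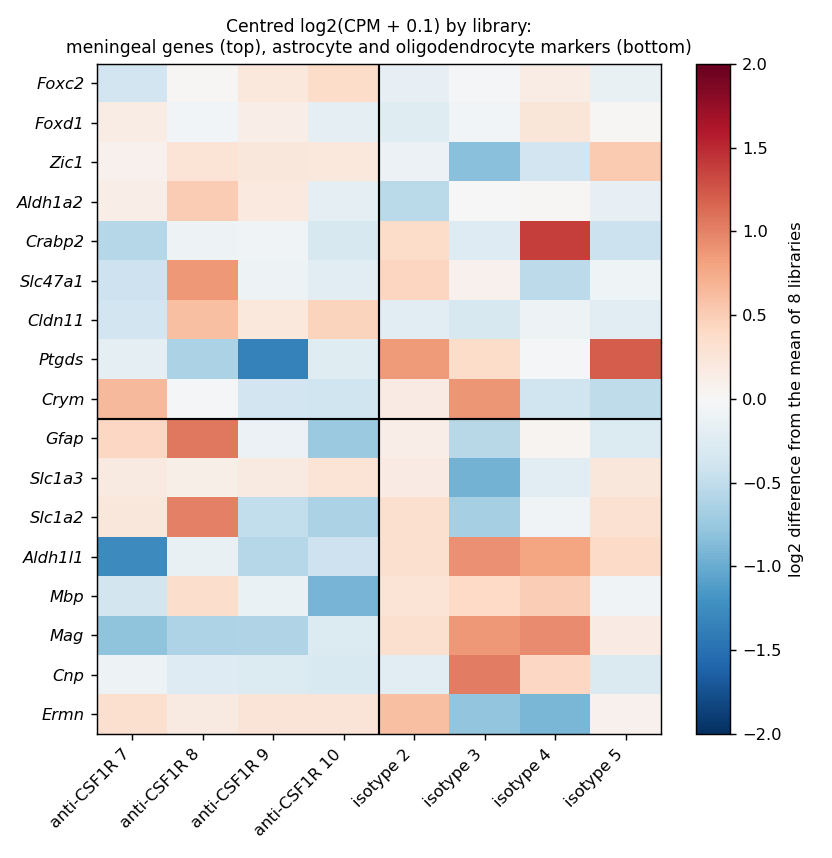
Centred log2(CPM + 0.1) of the 9 tested members (above the line) and of astrocyte and oligodendrocyte markers (below it) in each library, anti-CSF1R at the left of the vertical line and isotype at its right; red is above and blue below the gene's mean over 8 libraries. Anti-CSF1R 8 is red for Slc47a1, Cldn11, Aldh1a2, Gfap and Slc1a2, and Ptgds is blue in all 4 anti-CSF1R libraries.

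Genes with the most similar profile over the 8 libraries were named by the root mean square difference of centred log2 CPM. For Zic1 they were A930037H05Rik (0.0538), Arxes2 (0.0847) and 9330198N18Rik (0.0959), against a root mean square of 0.407 of Zic1 about its own mean. For Foxd1 they were Fer1l5, Fam151a and Incenp (0.0669 to 0.0780, own value 0.157), for Foxc2 Ephb1, Ak5 and Kcne4 (0.116 to 0.120, own value 0.223), and for Aldh1a2 A930003O13Rik, Rasgrp2 and Stum (0.129 to 0.149, own value 0.293). Cldn11 was closest to Cdkn2b, Fam135b and Gprin2 (0.170 to 0.179, own value 0.349). Ptgds was closest to Ttc23l, Atf7ip2 and Trac (0.282 to 0.371, own value 0.821), Crabp2 to Igfbp3, 2310001K24Rik and A830052D11Rik (0.326 to 0.343, own value 0.618). Slc47a1 was closest to LOC118567543, Unc79 and LOC118567476 (0.242 to 0.252, own value 0.461), and Crym to Mir25, Tafa1 and Rpph1 (0.278 to 0.308, own value 0.654). No member was among these nearest genes of another member.

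Of a list of 25 other meningeal genes, which shares Foxc1 and several ZIC genes with the relatives above, 22 were tested. In edgeR on all libraries 0 passed, with 5 at an unadjusted p under 0.05. DESeq2 gave 4 calls, 3 lower and 1 higher, against 3.69% of all genes lower and 0.869% higher. The median log2 fold change was 0.07, with 13 values above 0 and 9 below. Cxcl12, a chemokine of stromal cells, averaged 307 ± 31.3 CPM with anti-CSF1R and 226 ± 61.5 CPM with isotype, and Mgp, an inhibitor of mineralisation, 168 ± 24.9 and 300 ± 82.2 CPM in the same order (edgeR adjusted p = 0.278 and 0.176). Mgp was 1 of the 4 DESeq2 calls (log2 fold change -0.87, DESeq2 adjusted p = 0.0195, between 0.0195 and 0.451 in its 17 alternatives). Cxcl12 passed with isotype 2 and 5 only (log2 fold change 0.77, edgeR adjusted p = 0.00258; between 0.00258 and 0.486 in its 17 alternatives).

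With isotype 2 and 5 only, 3 of the 22 were called, against 3.06% of all tested genes. The others were Fxyd5 and Cyp1b1, which are singled out because they complete that count. Fxyd5, an ion pump regulator of dural fibroblasts and many other cells, stood at 53.0, 50.5, 49.6 and 43.2 CPM in anti-CSF1R 7, 8, 9 and 10, against 85.3, 199, 139 and 90.0 CPM in isotype 2, 3, 4 and 5. The groups did not overlap, and the log2 fold change was -1.39 ± 0.27 on all libraries (edgeR adjusted p = 0.0598) and -0.84 when isotype 3 and 4 were left out (0.000680; between 0.000173 and 0.228 in its 17 alternatives). Cyp1b1, a monooxygenase that can oxidise retinoids, stood at 19.7, 28.3, 21.2 and 25.7 CPM in anti-CSF1R 7, 8, 9 and 10, against 12.3, 5.80, 3.60 and 10.1 CPM in isotype 2, 3, 4 and 5. Again the groups did not overlap, and the log2 fold change was 1.58 ± 0.35 on all libraries (edgeR adjusted p = 0.0883) and passed when isotype 3 and 4 were left out (0.0123; between 0.000735 and 0.274 in its 17 alternatives). Both also passed under the offset, at -1.2 and 1.31 (edgeR adjusted p = 0.0114 and 0.00934), where 2.65% of all genes were called.

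Other tissue of the dissected bone was also compared. Osteoblast markers, led by Col1a1 and Spp1, summed to 94400 to 111000 CPM with anti-CSF1R and 108000 to 162000 CPM with isotype, and fibroblast markers, led by Col3a1 and Postn, to 9190 to 10400 and 7850 to 11900 CPM in the same order. Suture mesenchyme markers, led by Prrx1 and Twist1, summed to 425 to 459 CPM with anti-CSF1R and 334 to 470 CPM with isotype. Endothelial markers, led by Cdh5 and Pecam1, summed to 536 to 617 CPM with anti-CSF1R and 427 to 480 CPM with isotype, and mural cell markers, led by Pdgfrb and Cspg4, to 923 to 975 and 784 to 992 CPM in the same order. Skeletal muscle markers, led by Acta1 and Mylpf, summed to 3.98 to 4.6 CPM with anti-CSF1R and 3.90 to 60.6 CPM with isotype, the high end in isotype 3. Schwann cell markers, led by Pmp22 and Prx, summed to 133 to 151 CPM with anti-CSF1R and 126 to 163 CPM with isotype. Epidermal markers, led by Krt10 and Krt1, summed to 3.23 to 3.62 CPM with anti-CSF1R and 2.86 to 3.4 CPM with isotype, with Krt15 and Dsg3 at 0 in every library. Lower without overlap were 3 of 8 fibroblast markers (Col3a1, Dpt, Ly6a) and 2 of 6 suture markers (Twist1, Msx2). So was 1 of 5 tested muscle markers (Ckm). Higher without overlap were 5 of 6 endothelial markers and 1 of 7 osteoblast markers (Runx2). Over all tested genes 8.34% lay lower in this way and 6.61% higher. In edgeR on all libraries 0 markers of these lists passed. DESeq2 called Dpt, Msx2 and 4 muscle markers lower, with 3.69% of all genes. The part of these tissues in the values of the meningeal genes was not tested.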

How the data were processed

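RNA of parietal bone was sequenced in 4 anti-CSF1R and 4 isotype libraries. The labels' protocols name the TruSeq Stranded mRNA kit with an input of 1 µg and paired reads of 101 bp. The values are raw counts per gene symbol, deposited by the authors in a table of 27133 genes; per the submitters' processing notes the tools were STAR 2.7.10b and featureCounts 1.6.3 and the builds GRCm38 and GRCm39. The annotation and the counting strand were not given in the sources used here.

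Counts were compared with edgeR 4.0.16 in R 4.3.3: genes were kept by filterByExpr (17028 remained), libraries scaled by TMM, and the quasi-likelihood test run with robust estimates. Adjustment was by Benjamini-Hochberg over all tested genes, with a threshold of 0.05. SE is the log2 fold change divided by the square root of F. Centred log2 CPM used a prior count of 2. Transcript length and GC content came from the longest GENCODE M21 transcript of the symbol (94.0% of tested genes). Library numbers come from the titles and are not shared between groups, so nothing was paired.

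The members and the lists (7 of related genes, 13 of cell type markers) were chosen with earlier results of these data known. Named genes are the members, up to 6 called genes and the 2 with the highest CPM per list, and the 3 nearest profiles per member; other genes were named after their values were seen, among them defining markers (Mog, Olig2, Ttr, Krt15, Dsg3) and genes of the arachnoid barrier (Dpp4, Cdh1, Slc6a13, Slc13a4, Slc22a2, Slc22a8). Alternatives were DESeq2 1.42.0, limma-voom (limma 3.58.1), scaling by RLE or by library size alone, no filter, a filter of 1 CPM in 4 libraries, the GC and length offset (natural splines, 5 degrees of freedom), isotype 2 and 5 only, halved counts, and leaving out each library. A few genes of these lists are not reported here by name.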

Additional observations from a re-analysis of the deposited data

Results flagged for a closer look

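Over 70 genes, 134 groups of 4 libraries were checked, and in 9 of them 1 library lay far from the other 3 (its gap to the nearest over the group's range exceeded Dixon's critical value). Chance alone passes this in about 1 of 20 groups. Slc47a1 stood at 1.45 CPM in anti-CSF1R 8, against 0.692 CPM in the next library of the group. Rxra stood at 91.0 CPM in anti-CSF1R 8, with the next library at 98.2 CPM, and Csf1r at 39.4 CPM in anti-CSF1R 10, with the next at 61.4 CPM. Twist1 stood at 72.3 CPM in anti-CSF1R 7, with the next at 69.5 CPM. Krt1 stood at 0.649 CPM in isotype 3, with the next at 0.351 CPM. Dhrs3 stood at 59.7 CPM in anti-CSF1R 7, with the next at 75.8 CPM, and Tjp3 at 0.75 CPM in anti-CSF1R 9, with the next at 0.495 CPM. Mog stood at 0.173 CPM in anti-CSF1R 9, with the next at 0.066 CPM, and Olig2 at 0.0283 CPM (2 counts) in anti-CSF1R 7, with the others at 0. Of these genes, Slc47a1 is the only one of the 10 members.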

How the results depend on the processing

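Aldh1a2, Cldn11 and Foxc2 (17 alternatives each) and Crabp2 (16) kept their sign and stayed short of the threshold. Ptgds kept its sign in 16 alternatives and passed in 2: DESeq2 (-1.35) and isotype 2 and 5 only (-1.72). Signs turned in 4 members. Slc47a1 was -0.0795 with isotype 2 and 5 only, and -0.302 to 0.286 without 1 library. Foxd1 was -0.0194 with RLE factors, -0.0191 with DESeq2, and -0.0894 to 0.0923 without 1 library. Zic1 was -0.0543 with the offset and -0.0453 when isotype 3 and 4 were left out. Crym was 0.0556 with library size alone, 0.30 with isotype 2 and 5 only, and -0.62 to 0.43 without 1 library. The cause was not tested.

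Over all tested genes the calls went from 144 to 777 with DESeq2, 452 with the offset and 536 with isotype 2 and 5 only. They were 155 without a filter and 35 to 260 without 1 isotype library. A rise in the calls of a list is to be read beside these. The 0 members past the threshold became 1 with DESeq2 and 1 with isotype 2 and 5 only. Other meningeal genes went from 0 to 4 with DESeq2, 1 without a filter, 2 with the offset, 3 with isotype 2 and 5 only and 0 to 3 without 1 library. Retinoid genes went from 0 to 2, 3 and 1 with DESeq2, the offset and isotype 2 and 5 only, and 0 to 1 without 1 library. Prostaglandin genes went from 0 to 1 with each of these 3, and tight junction genes to 1 with DESeq2. Ptgds, Crabp2 and Slc47a1 had no value under the filter of 1 CPM, nor Crym there or with halved counts; Slc22a6 had one without a filter alone. Without anti-CSF1R 7, 8, 9 or 10, edgeR called 0, 0, 4 and 14 of all genes, against 144 with all libraries, so those fits say little of stability. Counts under about 200 (Ptgds, Crabp2, Slc47a1, Crym, Slc22a6) limit what can be seen. No paired analysis was possible because the groups share no replicate number.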
